A study of Mus musculus with 32 samples.

Results

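The genes described here are 32 genes of hepatic fatty acid oxidation and targets of the nuclear receptor PPAR alpha, measured in mouse liver on 32 1-colour Agilent arrays. They were taken by gene name from a list made for this purpose, and their 40 probes gave 32 genes among the 21290 genes that could be tested. Every member was above background well enough to be tested. Male C57/BL6 mice, 8 weeks old when the diet began, were fed standard chow (C) or a diet lacking methionine and choline (MCD) for 3 weeks. Fc-GLP-1, a GLP-1 analogue joined to a human IgG4 Fc domain, was injected every 2 days during the last 2 of these weeks, giving 2 groups: C+Fc-GLP-1 on chow, and M+Fc-GLP-1 on the MCD diet. The untreated groups C and MCD received vehicle. Livers were taken at that point (before PH) or 2 weeks after removal of 70% of the liver by partial hepatectomy (after PH), with the diet continued. For M+Fc-GLP-1 mice after PH the source names continue the treatment too. The dose on the labels is 4.4 mg/kg per day, whereas the study's methods give a molar dose every 2 days. The labels conflict on the drug. Sample descriptions and protocols name an agent that acts on the glucagon receptor as well as on GLP1R, and in C+Fc-GLP-1 after PH the source names give Fc-GLP-1 up to the operation and that other agent after it, where the study's methods continue Fc-GLP-1. This could not be settled, so every value of the treated groups carries the doubt. After PH the source names give C+Fc-GLP-1 mice that other agent and M+Fc-GLP-1 mice the same treatment as before. Diet and agent may therefore differ together between these 2 groups after PH, and in the change of their difference over time. Each of the 8 groups held 4 livers labelled as biological replicates, and those after PH came from mice that had survived the operation. The study describes the earlier liver of treated mice as tissue removed at the operation, and whether a mouse gave liver at both times is not stated in the labels.

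PPAR alpha is a receptor that fatty acids bind, and in hepatocytes it drives the genes that take up fatty acids, shuttle them into mitochondria on carnitine and burn them there or in peroxisomes. Its activity is best known from fasting, when the liver oxidises fat and releases ketone bodies. The MCD diet is a common model of steatohepatitis in which fat accumulates in hepatocytes, partly because secretion of lipoproteins needs phosphatidylcholine.

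Levels are given as log2 signal relative to the array's 75th percentile, so that 0 is that percentile and 1 unit is a doubling, and they are compared for the same probe only. Differences are log2 fold changes with the standard error (SE) of a limma fit over all 8 groups, and adjusted p-values are limma's after Benjamini-Hochberg adjustment over 21290 genes, called at 0.05. The share of all genes called is given for this main fit only. Counts of members under other processing or with fewer arrays have no such share beside them. Between 36.2% and 69.1% of probes were well above background per array. MCD against C before PH, M+Fc-GLP-1 against C+Fc-GLP-1 before PH and the same pair after PH each lay within 1 slide, and an additive slide difference cancels in the 2 interactions. In the other 7 comparisons slide and group cannot be told apart, and after PH the C and MCD arrays were also read on another scanner than the treated arrays. Hepatocyte markers were all detected, with summed linear levels of at least 2116 on every array. 3 arrays after PH stood apart by bile duct markers, whose summed level was 51.85 in C replicate 1, 70.62 in C+Fc-GLP-1 replicate 1 and 61.28 in M+Fc-GLP-1 replicate 4, against 2.377 to 14.45 on all others. Of the 32 members, 25, 24 and 23 had the lowest value of their group on these 3 arrays, and counts of members called that use them are given with and without them. Low member values were not confined to these arrays. MCD replicate 1 after PH, with the lowest bile duct marker sum (2.377), was lowest of its group in 21 members.

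The diet alone moved few members before PH, and mostly downwards, whereas under Fc-GLP-1 the diet difference was upwards. In MCD against C before PH, 2 members rose and 4 fell, when 26.3% of all genes tested were called. That is fewer of the members than of all genes, and their median difference was -0.19 against -0.12 over all genes. With arrays centred on their median in place of the 75th percentile, which moved the median of all genes to 0.24, 5 members rose and 2 fell, so the split follows the centring. In M+Fc-GLP-1 against C+Fc-GLP-1 before PH, 11 members rose and 0 fell, when 10.4% of all genes were called, 5.37% upwards. Of the 32 members 30 were above 0 in this comparison, with a median of 0.59 against 0.04 over all genes. After PH, 7 members rose and 0 fell between the same 2 groups, with 12.8% of all genes called, and the median was 0.38 against -0.01. Without the 3 arrays that stood apart the number that rose after PH was 6. All 7 were among the 11 that rose before PH.

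**Figure D1:**
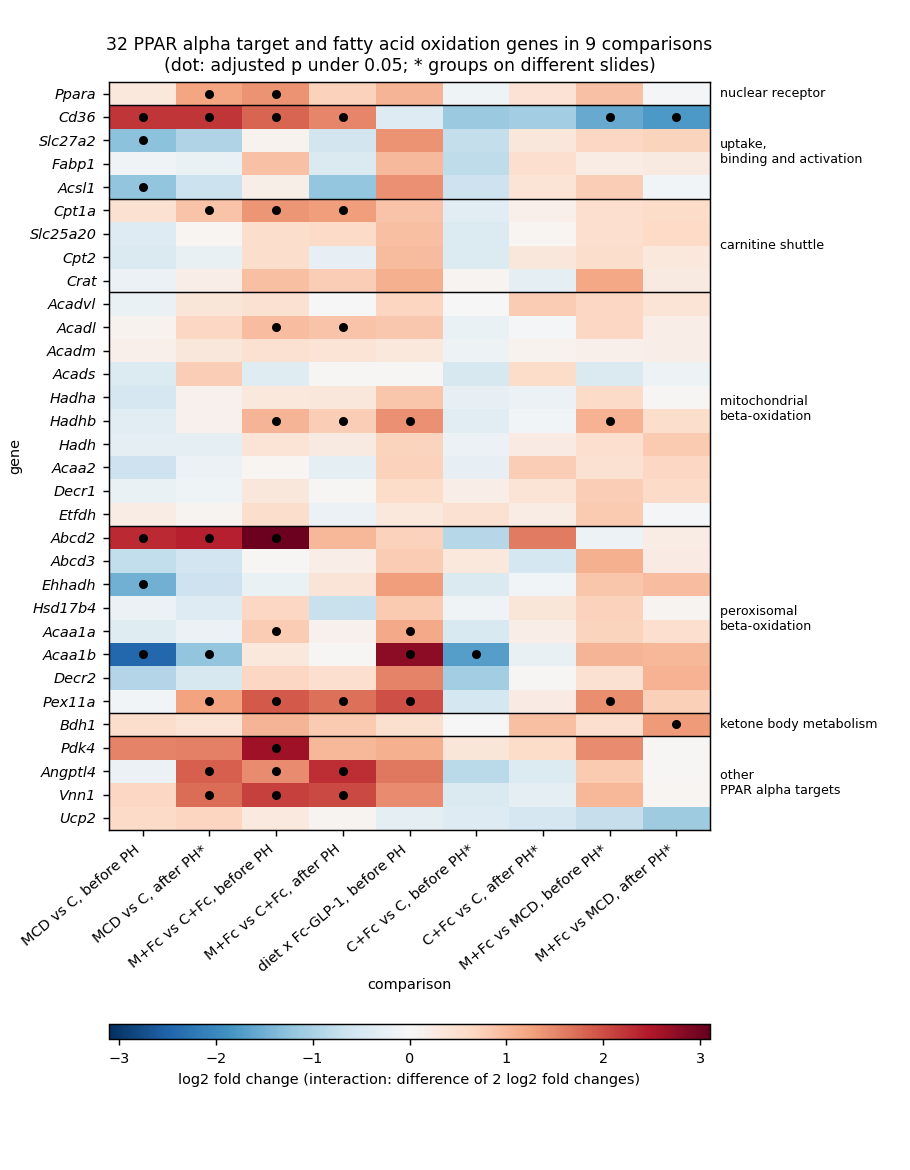
Log2 fold change (colour) of the 32 members (rows, grouped by role) in 9 comparisons (columns), where a dot marks an adjusted p under 0.05 and an asterisk a comparison across slides. The column of M+Fc-GLP-1 against C+Fc-GLP-1 before PH holds 11 dots, all on positive values, and that of MCD against C before PH holds 6, of which 4 are on negative values.

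Ppara encodes the receptor itself. Before PH its levels were 5.56, 6.09, 5.10 and 5.84 in C mice and 5.65, 5.70, 6.41 and 6.12 in MCD mice, a difference of 0.33 ± 0.32 (SE) with an adjusted p of 0.47. The 2 groups overlapped. Under Fc-GLP-1 the levels were 5.60, 5.03, 5.61 and 5.78 on chow and 7.01, 6.44, 7.08 and 7.04 on the MCD diet. Every M+Fc-GLP-1 liver was above every C+Fc-GLP-1 liver, and Ppara rose by 1.39 ± 0.32 (adjusted p = 0.00445), which is 2.61-fold. After PH the levels were 4.75, 4.72, 5.89 and 5.37 in C+Fc-GLP-1 and 6.01, 6.23, 5.71 and 5.63 in M+Fc-GLP-1 mice, overlapping at a difference of 0.71 ± 0.32 (adjusted p = 0.15). Among untreated mice after PH they were 3.60, 4.98, 5.45 and 4.88 in C and 5.54, 5.82, 6.17 and 6.28 in MCD. These groups did not overlap, and the difference was 1.22 ± 0.32 (adjusted p = 0.0108). Without C replicate 1 it was 0.85 and no longer called (adjusted p = 0.0505). Ppara has 2 further probes. They rose by 1.16 and 1.68 in M+Fc-GLP-1 against C+Fc-GLP-1 before PH, and by 1.11 (adjusted p = 0.0316) and 1.27 (adjusted p = 0.0235) after PH, where the main probe was not called.

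Among the 4 genes of uptake, binding and activation, Cd36 rose with the diet while the other called genes fell in untreated mice before PH. Cd36 encodes a fatty acid translocase that hepatocytes share with macrophages and endothelial cells. Before PH it stood at 0.07, 0.03, -0.35 and 0.04 in C and at 2.04, 1.64, 2.57 and 2.41 in MCD mice, and it rose by 2.21 ± 0.40 (adjusted p = 0.000188), or 4.64-fold. Its levels were -1.84, -0.86, -1.53 and -0.58 in C+Fc-GLP-1 and 0.43, 0.77, 0.47 and 0.75 in M+Fc-GLP-1 mice, a rise of 1.81 ± 0.40 (adjusted p = 0.00328). In both pairs all 4 livers on the MCD diet were above all 4 on chow. After PH the rise was from 2.28, 1.07, 0.87 and 1.54 in C to 3.47, 3.60, 3.65 and 3.92 in MCD mice (2.22 ± 0.40, adjusted p = 0.000392). It was from 0.85, 0.79, 1.08 and -1.27 in C+Fc-GLP-1 to 1.44, 1.25, 2.94 and 1.83 in M+Fc-GLP-1 mice (1.50 ± 0.40, adjusted p = 0.0116). These groups did not overlap either, although C+Fc-GLP-1 replicate 4 lay far below its group. The difference was 0.96 (adjusted p = 0.0762) without that array and 1.14 (adjusted p = 0.0666) without M+Fc-GLP-1 replicate 3.

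Beside Cd36, markers of macrophages and Kupffer cells moved before PH. Of 10 such markers 9 rose in MCD against C, with summed linear levels of 62.46 to 114 in C and 136.4 to 378.1 in MCD livers. The sums were 83.62 to 153.8 in C+Fc-GLP-1 and 51.77 to 127.4 in M+Fc-GLP-1 livers, where 0 of the 10 rose and 1 fell. The part of macrophages and Kupffer cells in the rise of Cd36 in either pair was not tested. Endothelial markers were higher too, with sums of 48.5 to 63.47 in C and 64.7 to 84.17 in MCD livers and 1 of 6 called. In the treated pair their sums overlapped, at 58.92 to 74.6 in C+Fc-GLP-1 and 66.43 to 89.64 in M+Fc-GLP-1 livers, again with 1 of 6 called higher, and their part in the rise of Cd36 in either pair was not tested. In whole liver, fewer cells of a type and less RNA per cell cannot be told apart. After PH 0 of the 10 were called in MCD against C, and 5 of 6 neutrophil markers rose, from sums of 8.024 to 29.67 to sums of 51.54 to 169.9. The part of neutrophils in the rise of Cd36 there was not tested.

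Slc27a2 encodes a fatty acid transporter that also activates very long chains, and Acsl1 the main long-chain acyl-CoA synthetase of liver. Slc27a2 stood at 8.0, 8.80, 8.76 and 8.46 in C and at 7.16, 7.01, 7.31 and 7.49 in MCD mice before PH, and it fell by 1.26 on the log2 scale (SE 0.35, adjusted p = 0.0091). Acsl1 went from 7.15, 7.43, 7.70 and 7.79 to 5.98, 5.79, 6.82 and 6.58 and fell by 1.22 (SE 0.46, adjusted p = 0.0495). In both genes every MCD liver was below every C liver. Slc27a2 was at -0.75 (adjusted p = 0.104) with quantile-normalised values and at -0.90 (adjusted p = 0.0716) with arrays centred on the median, and was called in neither. The call for Acsl1 lies at the threshold: leaving out each of the 8 arrays in turn, it was kept only without MCD replicate 3, and the adjusted p was 0.057 to 0.131 otherwise. Its second probe fell by 1.50 (adjusted p = 0.0086). The sum of 8 hepatocyte markers was also lower in every MCD liver, at 2753 to 3136 against 3697 to 5749 in C, with 2 of the 8 called lower, and its part in these falls was not tested.

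Under Fc-GLP-1 neither gene was called. Slc27a2 levels were 7.55, 8.86, 7.18 and 7.43 in C+Fc-GLP-1 and 8.16, 8.11, 7.33 and 7.89 in M+Fc-GLP-1 mice (difference 0.12 ± 0.35, adjusted p = 0.873). Acsl1 levels were 6.44, 8.18, 6.79 and 6.09 against 7.31, 7.25, 6.64 and 7.05 (0.18 ± 0.46, adjusted p = 0.851). The groups overlapped in both genes. The test of the change in the diet difference gave 1.38 ± 0.50 (adjusted p = 0.0908) for Slc27a2 and 1.41 ± 0.65 (adjusted p = 0.189) for Acsl1, so a change was not shown.

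After PH, Slc27a2 was at 6.76, 7.93, 8.25 and 7.72 in C, at 6.61, 6.61, 6.67 and 7.08 in MCD, at 7.37, 8.67, 8.64 and 7.39 in C+Fc-GLP-1 and at 7.48, 7.41, 7.97 and 6.89 in M+Fc-GLP-1 mice. Acsl1 was at 5.64, 7.45, 7.64 and 6.92, at 6.20, 6.15, 6.12 and 6.48, at 6.21, 7.99, 8.17 and 7.01 and at 6.29, 7.06, 6.42 and 4.86 in the same order. Neither was called after PH with all arrays. Without the 3 arrays that stood apart, Slc27a2 (-1.23, adjusted p = 0.0138) and Acsl1 (-1.10, adjusted p = 0.0447) fell in MCD against C. Fabp1, the liver fatty acid binding protein, was called in none of these comparisons, with differences of -0.11 in MCD against C and 0.90 in M+Fc-GLP-1 against C+Fc-GLP-1 before PH.

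Cpt1a makes long-chain acylcarnitines at the outer mitochondrial membrane, the rate-limiting step of entry. Before PH its levels were 6.14, 5.77, 5.49 and 5.71 in C and 6.32, 6.29, 6.12 and 6.31 in MCD mice (0.48 ± 0.22, adjusted p = 0.102), with 1 C liver inside the MCD range. With arrays centred on the median this difference was 0.85 and called (adjusted p = 0.00603). Under Fc-GLP-1 they were 5.49, 5.21, 5.27 and 5.73 on chow and 6.83, 6.81, 6.52 and 7.0 on the MCD diet. All livers on the MCD diet were higher, and Cpt1a rose by 1.37 ± 0.22 (adjusted p = 9.47e-05), or 2.58-fold. After PH it rose by 1.30 ± 0.22 (adjusted p = 0.000142), from 4.89, 5.60, 5.42 and 5.26 to 7.0, 6.66, 6.34 and 6.36. In untreated mice after PH the levels were 4.57, 5.15, 5.54 and 5.27 in C and 5.72, 5.83, 6.15 and 6.36 in MCD (0.88 ± 0.22, adjusted p = 0.00779). Neither pair overlapped. The second Cpt1a probe gave 0.62 (adjusted p = 0.191) before PH and 0.87 (adjusted p = 0.0531) after PH under Fc-GLP-1, so the call rests on the brighter probe.

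The other 3 genes of the shuttle are the carnitine-acylcarnitine carrier Slc25a20, Cpt2, which returns the acyl group to CoA inside the mitochondrion, and the short-chain enzyme Crat. In M+Fc-GLP-1 against C+Fc-GLP-1 before PH they were at 0.54 ± 0.31, 0.53 ± 0.38 and 0.92 ± 0.46, and the lowest adjusted p of the 3 was 0.213. All 4 shuttle genes were above 0, and 1 was called, when 10.4% of all genes were called. The second Cpt2 probe gave -0.52, a sign opposite to the first.

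The 10 mitochondrial beta-oxidation genes showed few calls in the diet comparisons. In MCD against C before PH 0 of 10 were called, when 26.3% of all genes were called. Differences ran from -0.64 for the thiolase Acaa2 (adjusted p = 0.0508) to 0.24 for Etfdh, which passes electrons to the respiratory chain. In M+Fc-GLP-1 against C+Fc-GLP-1 before PH 9 of 10 were above 0, with a median of 0.45 against 0.04 over all genes. Acadl and Hadhb rose, when 10.4% of all genes were called. The 2 called were the same after PH, when 12.8% of all genes were called. Acadl, the long-chain acyl-CoA dehydrogenase, varied least among all members, with an SD within groups of 0.276. It stood at 4.06, 3.90, 3.82 and 3.62 in C and 3.74, 3.96, 3.90 and 4.26 in MCD mice before PH, which overlapped. It stood at 3.99, 3.50, 3.52 and 3.61 in C+Fc-GLP-1 and at 4.75, 4.43, 4.63 and 4.65 in M+Fc-GLP-1 mice. These did not overlap, and Acadl rose by 0.96 ± 0.22 (adjusted p = 0.00407). After PH it went from 2.85, 3.78, 3.77 and 3.39 to 4.61, 4.63, 4.34 and 3.77 (0.89 ± 0.22, adjusted p = 0.00621), where M+Fc-GLP-1 replicate 4, an array that stood apart, lay inside the C+Fc-GLP-1 range. In untreated mice after PH the levels were 3.24, 3.39, 3.78 and 3.56 in C and 3.91, 4.03, 4.13 and 4.45 in MCD (0.64 ± 0.22, adjusted p = 0.052).

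Hadha and Hadhb encode the alpha and beta subunits of the mitochondrial trifunctional protein, which carries out the last steps of long-chain beta-oxidation. Hadhb was at 6.06, 6.24, 6.26 and 6.70 in C and at 5.50, 5.67, 6.42 and 6.25 in MCD mice before PH (-0.36 ± 0.25, adjusted p = 0.311). It was at 5.75, 5.86, 6.53 and 5.74 in C+Fc-GLP-1 and at 7.17, 7.10, 7.42 and 6.41 in M+Fc-GLP-1 mice, a rise of 1.06 ± 0.25 (adjusted p = 0.00683). C+Fc-GLP-1 replicate 3 lay above M+Fc-GLP-1 replicate 4, so the groups overlapped. With quantile-normalised values the difference was 0.65 and not called (adjusted p = 0.303), and a fit of these groups alone gave an adjusted p of 0.0613. After PH Hadhb went from 5.32, 5.77, 6.10 and 5.90 to 6.77, 6.90, 6.30 and 6.12 (0.75 ± 0.25, adjusted p = 0.0488), a call kept only without C+Fc-GLP-1 replicate 3 or M+Fc-GLP-1 replicate 4 when arrays were left out in turn, and with an adjusted p of 0.0543 to 0.161 without any of the others. In untreated mice after PH it was at 5.51, 6.02, 5.97 and 5.96 in C and at 5.74, 5.99, 6.22 and 6.01 in MCD. Hadha was at 0.34 ± 0.23 (adjusted p = 0.379) in M+Fc-GLP-1 against C+Fc-GLP-1 before PH and at 0.36 (adjusted p = 0.348) after PH. The difference between the subunits was not tested.

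**Figure D2:**
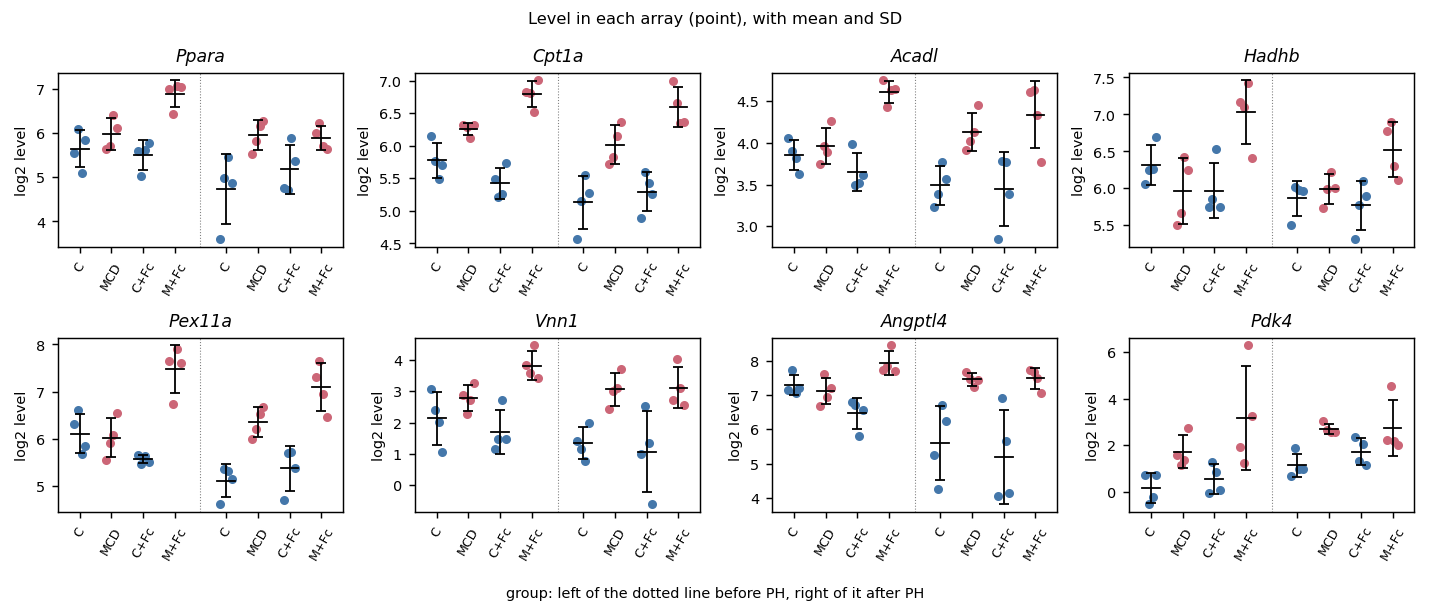
Level of 8 members on each array (points, log2 relative to the 75th percentile of the array) with the group mean and SD (bars), in chow (blue) and MCD (red) mice before and after PH. In Ppara, Cpt1a, Acadl and Pex11a the 4 M+Fc-GLP-1 livers before PH lie above all 4 C+Fc-GLP-1 livers, and in Pdk4 1 M+Fc-GLP-1 liver before PH lies at 6.28, far above the rest.

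The 8 peroxisomal genes split in MCD against C before PH, where a transporter rose and a thiolase and the bifunctional enzyme fell. Abcd2 encodes a transporter of very long chain acyl-CoA in the peroxisomal membrane and was dim. It stood at -3.63, -2.20, -3.37 and -3.66 in C and at -0.97, -1.70, -0.61 and -0.31 in MCD mice before PH, and rose by 2.32 ± 0.52 (adjusted p = 0.00175). It stood at -3.72, -5.88, -3.62 and -3.16 in C+Fc-GLP-1, where 1 of 4 arrays was well above background, and at -1.30, -0.57, -1.18 and -1.20 in M+Fc-GLP-1 mice (3.03 ± 0.52, adjusted p = 0.00024). In both pairs the groups lay apart. The size depended on the processing, and with quantile-normalised values the rises were 1.41 (adjusted p = 0.002) in untreated and 1.24 (adjusted p = 0.0146) in treated mice. After PH Abcd2 was at -3.09, -3.48, -3.46 and -3.90 in C and at -2.22, -1.33, -0.63 and -0.11 in MCD mice, again apart (2.41 ± 0.52, adjusted p = 0.00273, and 1.46 with quantile-normalised values). It was at -2.86, -1.43, -0.84 and -2.38 in C+Fc-GLP-1 and at -1.19, -1.56, 0.43 and -1.06 in M+Fc-GLP-1 mice after PH, which overlapped and was not called. Macrophage markers rose beside Abcd2 in MCD against C before PH, and their part in it was not tested.

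Acaa1b, a peroxisomal thiolase, showed the largest fall of any member in the 12 comparisons. Before PH it was at 8.01, 7.61, 8.05 and 7.97 in C and at 4.72, 5.33, 5.77 and 6.04 in MCD mice, and fell by 2.44 (SE 0.37, adjusted p = 2.25e-05), or 5.44-fold. It was at 6.20, 6.03, 5.95 and 6.61 in C+Fc-GLP-1 and at 6.80, 6.06, 6.40 and 6.86 in M+Fc-GLP-1 mice, which overlapped. The C group was thus the only one before PH in which every value was above 7. C+Fc-GLP-1 against C, on different slides, gave -1.71 ± 0.37 (adjusted p = 0.0154), the only member called in that comparison. After PH Acaa1b was at 5.47, 6.86, 6.71 and 7.31 in C and at 5.06, 5.18, 5.10 and 6.13 in MCD mice (-1.22 ± 0.37, adjusted p = 0.0278), which overlapped through C replicate 1. This call was kept only without C replicate 1 or MCD replicate 4 when arrays were left out in turn (adjusted p 0.0704 to 0.12 without any of the others). It was at 5.54, 6.88, 6.86 and 6.18 in C+Fc-GLP-1 and at 6.52, 6.93, 6.71 and 5.46 in M+Fc-GLP-1 mice, which overlapped. Acaa1a and Acaa1b are close paralogues on chromosome 9 (GRCm38.p6, 119341028 to 119350296 and 119148043 to 119157093), and whether their probes also bind each other's transcript was not tested.

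Acaa1a, the other peroxisomal thiolase, was at 7.64, 8.29, 7.92 and 8.25 in C and at 7.22, 7.86, 7.53 and 7.97 in MCD mice before PH, which overlapped. It was at 7.97, 7.63, 7.42 and 7.18 in C+Fc-GLP-1 and at 8.90, 8.03, 8.11 and 8.34 in M+Fc-GLP-1 mice. These did not overlap, and it rose by 0.79 ± 0.24 (adjusted p = 0.0299). The call was lost without C+Fc-GLP-1 replicate 2, 3 or 4 or M+Fc-GLP-1 replicate 1 or 4, with an adjusted p of 0.0528 to 0.122. Ehhadh, the peroxisomal bifunctional enzyme, was at 5.54, 4.91, 5.61 and 5.74 in C and at 3.88, 3.60, 4.17 and 4.17 in MCD mice before PH. It fell by 1.49 (SE 0.31, adjusted p = 0.000933), with all MCD livers lower. Under Fc-GLP-1 Ehhadh was at 5.76, 5.01, 4.61 and 4.66 on chow and at 4.51, 5.23 and 4.69 on the MCD diet, where replicate 4 was flagged by the scanner and left out (n = 3), and it was not called.

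Pex11a promotes the division of peroxisomes and rose in every diet comparison but MCD against C before PH. There it was at 6.31, 6.60, 5.68 and 5.85 in C and at 5.55, 5.91, 6.09 and 6.54 in MCD mice (-0.09 ± 0.29, adjusted p = 0.849). Under Fc-GLP-1 before PH it was at 5.66, 5.47, 5.64 and 5.51 on chow and at 7.66, 6.74, 7.90 and 7.60 on the MCD diet. It rose by 1.90 ± 0.29 (adjusted p = 4.75e-05), or 3.74-fold, and the groups lay more than 1 unit apart. After PH it went from 4.71, 5.70, 5.71 and 5.37 in C+Fc-GLP-1 to 7.30, 7.66, 6.94 and 6.46 in M+Fc-GLP-1 mice (1.72 ± 0.29, adjusted p = 0.000136). In untreated mice after PH it went from 4.62, 5.37, 5.32 and 5.14 to 5.99, 6.20, 6.54 and 6.68 (1.24 ± 0.29, adjusted p = 0.0049). Both pairs after PH lay apart. Pex11a kept its call in each of the alternatives tried in all 3 of these comparisons.

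**Figure D3:**
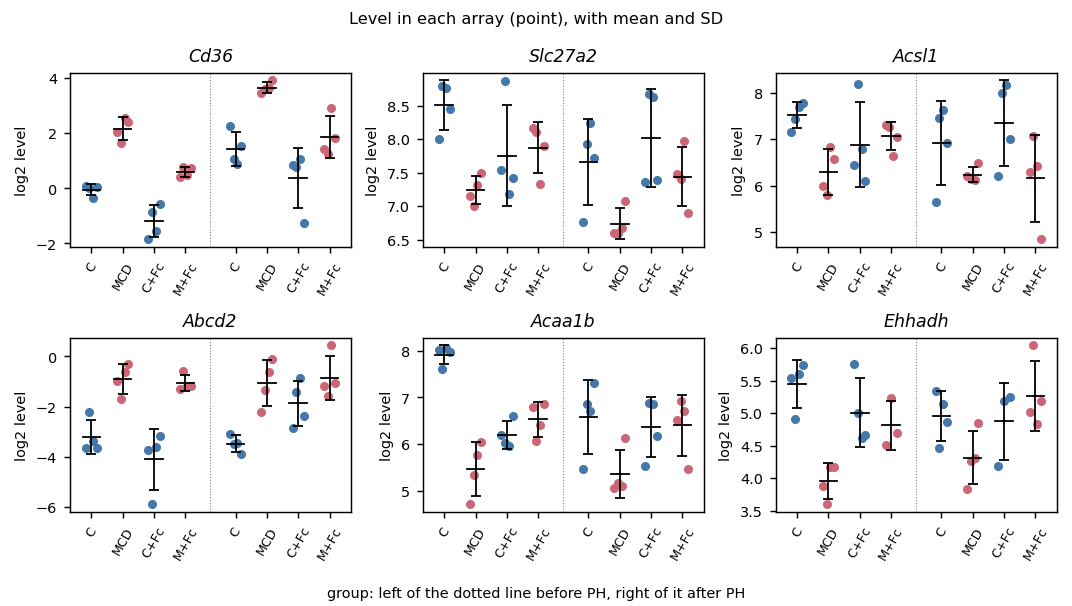
Level of Cd36, Slc27a2, Acsl1, Abcd2, Acaa1b and Ehhadh on each array (points, log2 relative to the 75th percentile of the array) with the group mean and SD (bars), in chow (blue) and MCD (red) mice before and after PH. Cd36 and Abcd2 are higher in all 4 MCD than in all 4 C livers before PH, and the other 4 genes are lower in all 4.

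Of the 4 remaining targets, 3 rose with the diet under Fc-GLP-1 before PH, when 10.4% of all genes were called. Vnn1, a pantetheinase, was at 3.08, 2.41, 2.00 and 1.06 in C and at 2.87, 2.28, 2.72 and 3.26 in MCD mice before PH, which overlapped. It was at 1.14, 1.47, 2.71 and 1.48 in C+Fc-GLP-1 and at 3.83, 3.58, 4.46 and 3.41 in M+Fc-GLP-1 mice, a rise of 2.12 ± 0.48 (adjusted p = 0.00434) with the groups apart. After PH it was at 1.42, 1.15, 0.79 and 1.99 in C and at 2.43, 2.99, 3.11 and 3.70 in MCD mice (1.72 ± 0.48, adjusted p = 0.0181). It was at 0.99, 2.53, 1.34 and -0.60 in C+Fc-GLP-1 and at 2.72, 4.04, 3.11 and 2.58 in M+Fc-GLP-1 mice (2.04 ± 0.48, adjusted p = 0.00474). Neither pair after PH overlapped. In untreated mice the call was lost without C replicate 2 or 3 or MCD replicate 4 (adjusted p 0.051 to 0.0674).

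Angptl4, a secreted inhibitor of lipoprotein lipase, was at 7.15, 7.72, 7.07 and 7.21 in C and at 6.69, 7.61, 6.95 and 7.20 in MCD mice before PH, which overlapped. It was at 6.79, 6.71, 5.79 and 6.57 in C+Fc-GLP-1 and at 7.73, 7.85, 8.45 and 7.70 in M+Fc-GLP-1 mice (1.47 ± 0.46, adjusted p = 0.0378). After PH it was at 4.05, 6.92, 5.65 and 4.14 and at 7.72, 7.68, 7.48 and 7.06 in these groups (2.30 ± 0.46, adjusted p = 0.000982). The groups lay apart at both times, although the call before PH was kept only without C+Fc-GLP-1 replicate 1 when arrays were left out in turn (adjusted p 0.0541 to 0.124 without any of the others). In untreated mice after PH it was at 5.24, 4.24, 6.70 and 6.23 in C and at 7.67, 7.48, 7.23 and 7.45 in MCD (1.86 ± 0.46, adjusted p = 0.00779), and without C replicate 2 the difference was 1.40 (adjusted p = 0.0527). Chow livers after PH spread over more than 2 units with and without Fc-GLP-1, and MCD livers over less than 1.

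Pdk4 encodes a kinase that shuts off pyruvate dehydrogenase and was the most variable member, with an SD within groups of 1.02. Before PH Pdk4 was at 0.71, -0.51, -0.21 and 0.73 in C and at 1.58, 1.17, 1.36 and 2.75 in MCD mice, which did not overlap, yet the difference of 1.54 ± 0.67 was not called (adjusted p = 0.0884). A fit of these groups alone called it (adjusted p = 0.0206), as did arrays centred on the median (1.90, adjusted p = 0.0417). Under Fc-GLP-1 before PH the spread was wider. It was at -0.06, 1.30, 0.84 and 0.09 in C+Fc-GLP-1 and at 1.95, 1.24, 6.28 and 3.26 in M+Fc-GLP-1 mice (2.64 ± 0.67, adjusted p = 0.0101). These overlapped, and without M+Fc-GLP-1 replicate 3 the difference was 1.61 and the adjusted p 0.0569. After PH Pdk4 was at 0.69, 1.87, 0.99 and 0.99 in C, at 3.02, 2.67, 2.56 and 2.58 in MCD, at 2.35, 1.32, 2.06 and 1.14 in C+Fc-GLP-1 and at 2.24, 4.53, 2.19 and 2.01 in M+Fc-GLP-1 mice. The C and MCD groups lay apart, and neither diet difference was called. A fit of C and MCD alone called theirs (1.57, adjusted p = 0.0125). Ucp2, an uncoupling protein also found in macrophages, was not called in the diet comparisons. Bdh1, which makes 3-hydroxybutyrate, was at 1.04 ± 0.39 (adjusted p = 0.0856) in M+Fc-GLP-1 against C+Fc-GLP-1 before PH. Its other probes were at 1.43 (called, adjusted p = 0.0286) and 0.67 (adjusted p = 0.0819), and the mean over the probes, at 1.05, was called too (adjusted p = 0.0216).

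Whether the diet difference itself changed with Fc-GLP-1 was tested before PH as an interaction. 4 members were called, all upwards, when 6.13% of all genes were called. They were Acaa1b (2.78 ± 0.52, adjusted p = 0.0039), Pex11a (1.99 ± 0.41, adjusted p = 0.00683), Hadhb (1.41 ± 0.36, adjusted p = 0.022) and Acaa1a (1.17 ± 0.34, adjusted p = 0.0371). In Acaa1b the diet difference was a fall in untreated mice and was not called in the treated pair. Pex11a, Hadhb and Acaa1a rose with the diet in the treated pair and were not called in untreated mice. The interaction was above 0 in 30 of 32 members, among them 10 of 10 mitochondrial and 8 of 8 peroxisomal genes, with a median of 0.91 against 0.15 over all genes. Ppara was not called by its main probe (1.06 ± 0.45, adjusted p = 0.149) or by a further probe (1.04, adjusted p = 0.196). It was called by the remaining probe (2.06, adjusted p = 0.0237). Macrophage markers moved the other way, with 6 of 10 lower in the interaction, and their part in these values was not tested. Centring arrays on the median took the interaction of all genes from 0.15 to -0.47 and left 2 members called, Acaa1b and Pex11a, and with quantile-normalised values 2 were called as well. Without MCD replicate 1, 2 members were called, and Hadhb was at 1.26 (adjusted p = 0.0545). Acaa1a lost its call in 9 of the 16 fits that left out 1 array, at an adjusted p of 0.0505 to 0.0878.

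**Figure D4:**
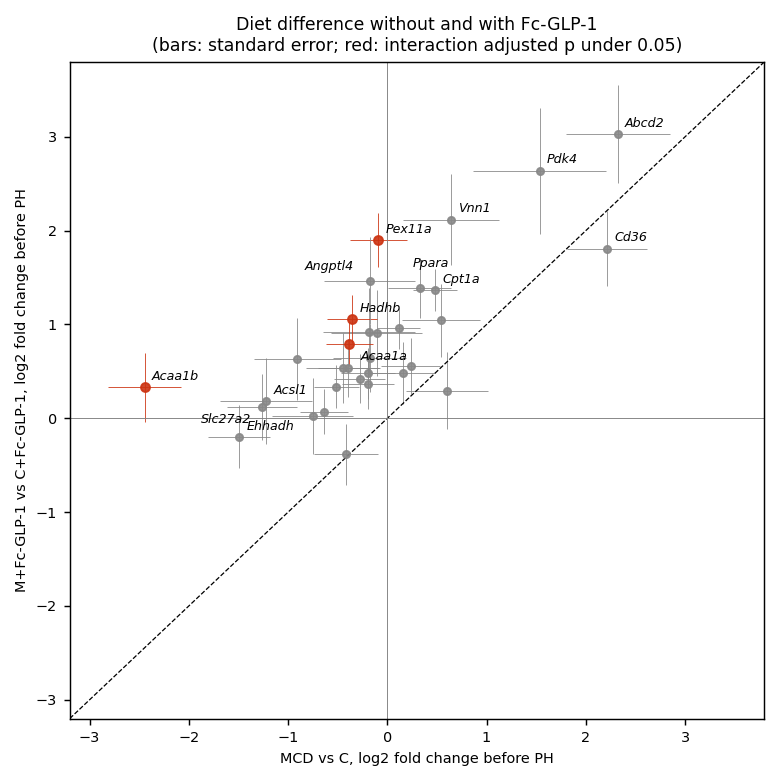
Log2 fold change of the diet before PH without Fc-GLP-1 (horizontal axis, MCD against C) and with it (vertical axis, M+Fc-GLP-1 against C+Fc-GLP-1) for the 32 members, with standard errors as bars and the dashed line marking equal differences. Points in red are the 4 members called in the interaction, and 30 of 32 members lie above the line.

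After PH the diet also raised members in untreated mice, where the groups lay on different slides. In MCD against C after PH 7 members rose and 1 fell, when 12.2% of all genes were called. Those that rose were Cd36, Abcd2, Angptl4, Vnn1, Pex11a, Ppara and Cpt1a, and Acaa1b fell. The median over the members was 0.13 against -0.03 over all genes, and without the 3 arrays that stood apart 7 members rose and 3 fell. Whether the diet difference under Fc-GLP-1 changed from before to after PH was tested too, and 0 of 32 members were called by limma, with 4 at an unadjusted p under 0.05, when 0.0939% of all genes were called. Without the 3 arrays that stood apart 0 were called too.

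Some of these calls ended under other processing. A fit of the compared groups alone, which rests on fewer arrays, gave adjusted p-values after PH of 0.0896 for Acadl, 0.11 for Cd36 and 0.051 for Vnn1 in M+Fc-GLP-1 against C+Fc-GLP-1. In MCD against C after PH it gave 0.0824 for Ppara, 0.0687 for Cpt1a and 0.101 for Acaa1b. In the treated pair before PH it gave 0.12 for Pdk4. There Angptl4 was at 1.12 (adjusted p = 0.117) with quantile-normalised values, and with arrays centred on the median Acaa1a was at 0.54 (adjusted p = 0.114) and Angptl4 at 1.21 (adjusted p = 0.0852). Calls were also gained. The fit of the compared groups alone added Pdk4 and Decr2 in MCD against C before PH, Pdk4 in MCD against C after PH and Angptl4 in the interaction before PH.

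The comparisons of treated with untreated mice on the same diet crossed slides. In M+Fc-GLP-1 against MCD before PH, 2 members rose and 1 fell, when 7.21% of all genes were called. Pex11a rose by 1.45 ± 0.29 (adjusted p = 0.00391) and Hadhb by 1.07 ± 0.25 (adjusted p = 0.0124), and Cd36 fell by 1.56 (SE 0.40, adjusted p = 0.0186). Of the 32 members 28 were above 0, with a median of 0.65 against 0.10. Macrophage markers fell beside Cd36, 6 of 10 of them, and their part in it was not tested. The count depended on the processing, since it was 10 with quantile-normalised values, 9 with the values the authors normalised, 1 without M+Fc-GLP-1 replicate 3 and 7 without M+Fc-GLP-1 replicate 2. The share of all genes called in these alternatives is not given. Cd36 was at -1.42 (adjusted p = 0.0573) without MCD replicate 3 and at -1.51 (adjusted p = 0.0521) without M+Fc-GLP-1 replicate 3. Hadhb was at 0.91 (adjusted p = 0.0626) without MCD replicate 1 and at 0.93 (adjusted p = 0.0528) without M+Fc-GLP-1 replicate 3, and it was not called with quantile-normalised values (adjusted p = 0.0677), with arrays centred on the median (0.75, adjusted p = 0.0779) or in a fit of these groups alone (adjusted p = 0.0586).

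In M+Fc-GLP-1 against MCD after PH, when 6.45% of all genes were called, Cd36 fell again (by 1.79, SE 0.40, adjusted p = 0.00714) and Bdh1 rose. Bdh1 was at 5.36, 5.59, 6.34 and 6.10 in MCD and at 8.08, 7.50, 7.06 and 6.09 in M+Fc-GLP-1 mice (1.33 ± 0.39, adjusted p = 0.0388). The groups overlapped through M+Fc-GLP-1 replicate 4, an array that stood apart. Without that array and the others that stood apart 8 members were called, with Bdh1 at 1.70, and Acaa1b, Acaa2, Acadvl, Hadh and Pex11a rose and Ucp2 fell in addition. With all arrays, the Bdh1 call was lost without any of 5 of the 8 arrays in turn (adjusted p 0.061 to 0.149), and its 2 other probes were at -0.23 (adjusted p = 0.805) and 1.02 (adjusted p = 0.0131). 3 of 10 macrophage, 5 of 6 neutrophil and 1 of 6 endothelial markers fell in the same comparison, and their part in the fall of Cd36 was not tested.

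In chow-fed mice the main fit called few members between treated and untreated livers, which lay on different slides. In C+Fc-GLP-1 against C before PH only Acaa1b was called of 32, when 2.08% of all genes were called, although 26 of 32 members were below 0 with a median of -0.38 against -0.04. With quantile-normalised values 9 members fell, among them Cd36 (-1.46, adjusted p = 0.0134), Slc27a2 (-1.15, adjusted p = 0.0251) and Decr2, a peroxisomal dienoyl-CoA reductase (-2.07, adjusted p = 0.011). The share of all genes called with those values is not given, so a general rise in calls cannot be told from one among the members. In C+Fc-GLP-1 against C after PH 0 of 32 were called by limma, with 5 at an unadjusted p under 0.05, when 2.05% of all genes were called, and without the 3 arrays that stood apart 0 were called too. From before to after PH, C+Fc-GLP-1 mice showed 1 call, a rise of Abcd2 by 2.22 ± 0.52 (adjusted p = 0.0391, 0.831% of all genes called). This starts from a group in which 1 of 4 arrays was well above background, and the call was lost without any of 6 of the 8 arrays in turn (adjusted p 0.0529 to 0.131). With quantile-normalised values the difference was 0.93 (adjusted p = 0.0696), and without the 3 arrays that stood apart it was 2.54 (adjusted p = 0.0353) and again the only call. M+Fc-GLP-1 mice showed 0 calls by limma over the same interval, with 5 at an unadjusted p under 0.05 (1.71% of all genes called), and without the 3 arrays 0 as well. Livers at the 2 times were fitted as separate samples, and with the replicate number as a block both counts were the same.

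Other genes of the pathway were chosen as companions and not members, with earlier results of these data known. Of all genes tested 26.3% were called in MCD against C and 10.4% in M+Fc-GLP-1 against C+Fc-GLP-1 before PH. The count of further oxidation enzymes called in the untreated pair was near that share. Of 24 further fatty acid oxidation enzymes 1 rose and 6 fell in MCD against C before PH, among them the bile acid and fatty acid activating enzyme Slc27a5 (-1.51, adjusted p = 0.000255), while Acsl4, an arachidonate-preferring synthetase, rose by 1.33 (adjusted p = 0.00592). In M+Fc-GLP-1 against C+Fc-GLP-1 before PH 3 of them rose and 4 fell, with the carnitine transporter Slc22a5 at 1.68 (adjusted p = 0.00116) and the branched-chain dehydrogenase Acadsb at -1.81 (adjusted p = 0.000747). Of 6 genes of ketogenesis and ketone use 0 were called by limma in the treated pair, with 1 at an unadjusted p under 0.05, and Slc16a1, a monocarboxylate transporter, fell by 1.10 (adjusted p = 0.0205) in the untreated pair.

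Of 19 further PPAR alpha targets 7 rose and 3 fell in MCD against C before PH, when 26.3% of all genes were called. In M+Fc-GLP-1 against C+Fc-GLP-1 before PH 12 rose and 1 fell, with a median of 1.73, when 10.4% of all genes were called. In the untreated pair the hormone Fgf21 rose by 4.56 (adjusted p = 8.46e-07) and the lipid droplet protein Cidec by 4.21 (adjusted p = 6.35e-06). In the treated pair Cidec and Acot3, an acyl-CoA thioesterase of peroxisomes, each rose by 6.0. After PH 10 of the 19 rose and 0 fell in M+Fc-GLP-1 against C+Fc-GLP-1, when 12.8% of all genes were called. In the interaction before PH 5 rose, when 6.13% of all genes were called. Of 12 partners and co-regulators 4 rose and 2 fell in the treated pair before PH, with the coactivator Ppargc1b at 1.68 (adjusted p = 0.0468) and the related receptor Ppard at -1.64 (adjusted p = 0.007), and in the untreated pair the Mediator subunit Med1 fell by 2.34 (adjusted p = 0.00092).

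PPAR alpha binds DNA with RXR at a direct repeat of the hexamer AGGTCA with 1 base between the copies, so the promoters of the members were searched for it. Promoter windows from RefSeq (GRCm38.p6, 250 bases before to 50 after each start) were at hand for 25 members. Allowing 2 mismatches over the 12 letters on both strands, 3 of 25 members (12%) held the repeat, against 4.4% of 27025 genes. With 1 mismatch it was 1 of 25 (4%) against 0.644%, and 0 of 25 held the exact repeat. With so few matches the shares were not tested against each other. The members with the repeat were Fabp1 with 1 mismatch, and Cd36 and Slc25a20 with 2. Fabp1 and Cd36 are shown because they hold the match, with capitals for the matched 13 bases. Hadhb is shown because it was called in the interaction by the main fit while its neighbour Hadha, at 0.85, was not. Each is the strand of the gene, 5′ to 3′. Fabp1 lies at chr6:71199629-71199878 on the plus strand, Cd36 at chr5:17835897-17836146 on the minus strand, Slc25a20's match at chr9:108662142-108662154 on the plus strand and Hadhb at chr5:30155003-30155252 on the plus strand.
Fabp1: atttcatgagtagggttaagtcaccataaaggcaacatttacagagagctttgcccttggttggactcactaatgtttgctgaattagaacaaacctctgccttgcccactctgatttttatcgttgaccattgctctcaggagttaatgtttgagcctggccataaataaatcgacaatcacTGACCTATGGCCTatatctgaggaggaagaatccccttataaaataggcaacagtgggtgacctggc
Cd36: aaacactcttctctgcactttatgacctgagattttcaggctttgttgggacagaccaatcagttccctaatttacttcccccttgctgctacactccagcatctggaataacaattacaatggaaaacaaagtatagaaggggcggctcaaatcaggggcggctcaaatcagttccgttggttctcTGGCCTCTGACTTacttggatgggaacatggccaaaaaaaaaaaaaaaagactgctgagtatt
Slc25a20: AGGTGAAAGGTCG
Hadhb: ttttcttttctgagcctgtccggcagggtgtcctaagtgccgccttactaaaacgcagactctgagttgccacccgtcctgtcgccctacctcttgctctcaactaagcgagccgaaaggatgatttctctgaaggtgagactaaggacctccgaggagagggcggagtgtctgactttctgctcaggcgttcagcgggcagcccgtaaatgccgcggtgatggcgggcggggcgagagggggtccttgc

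The match lay 67 to 55 bases before the start in Fabp1 and 6 to 18 bases after it in Slc25a20. In Cd36 it lay 63 to 51 bases before a start inside the gene. Cd36 spans chr5:17781690-17888959 on the minus strand, so the stretch shown is not at its 5′ end. Of these 3 genes Cd36 was called in diet comparisons, and Fabp1 and Slc25a20 were not. The window of Hadhb held no match within 2 mismatches (the fewest was 4), which says only that these letters are not in it. The starts of Hadha and Hadhb face away from each other with 272 bases between them, so that the stretch shown for Hadhb lies before the start of both. Hadhb rose by 1.06 in M+Fc-GLP-1 against C+Fc-GLP-1 before PH and Hadha was at 0.34 (adjusted p = 0.379). In the interaction both were above 0, Hadhb at 1.41 and Hadha at 0.85. The limma call of Hadhb there was lost with quantile-normalised values (adjusted p = 0.151) and with arrays centred on the median (adjusted p = 0.159). Whether Hadha and Hadhb differ was not tested.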

How the data were processed

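Total RNA of 32 livers was labelled with Cy3 and hybridised to 32 1-colour Agilent arrays on 5 slides. Per the file headers, the deposited intensity values came from Agilent Feature Extraction 10.7.3.1 (array grid build mm9), which subtracted background and detrended each array without scaling arrays to each other. The authors also deposited normalised log2 values, whose quantiles differ between the arrays before and after PH, used here only as an alternative within a time. From the intensities, log2 of the processed signal minus log2 of its 75th percentile over 59305 non-control spots was taken per array. Spots flagged as outliers were left out and spots of a probe averaged. Probes were kept if measured on at least 2 arrays of every group and well above background on every measured array of at least 1 group (29302 probes). A gene with several kept probes was read from the brightest of them (21290 genes). A probe was named by its RefSeq accession where that matched (27656 of 55681 probes) and by the name in the file otherwise. Members were found by the name in the file.

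limma 3.58.1 in R 4.3.3 (lmFit, eBayes) took the 8 groups together in a common model and gave 12 comparisons, each adjusted by Benjamini-Hochberg across the genes tested, with a threshold of 0.05. Groups and replicate numbers came from the labels. The p-values rest on an estimate of spread per gene that all 8 groups share, moderated across genes. They do not rest on the livers of the compared groups alone. Precision is limited by the 4 arrays a group. Correlations of deviations between samples of the same number ran from -0.188 to 0.514 and did not all pass 0.1 in any comparison, so numbers were not taken as pairs. Named in every array were members called in a comparison free of an additive slide difference, at most 3 per role by size, plus Ppara and Cpt1a. Members called in a comparison were named there. Alternatives changed the background correction, scaling, probe filter, probe choice, variance trend, groups fitted, slide block, replicate block and arrays. The fit was tested on simulated data. Members and lists were chosen with earlier results of these data known.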

Additional observations from a re-analysis of the deposited data

Results flagged for a closer look

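In 10 of 104 groups of 4 livers tested for the 13 members given in full, 1 array lay far from the other 3, by a criterion that chance meets in about 1 in 20 groups. Before PH these were Ppara in M+Fc-GLP-1 replicate 2 (6.44, low), Cd36 in C replicate 3 (-0.35, low), Cpt1a in MCD replicate 3 (6.12, low), Hadhb in C+Fc-GLP-1 replicate 3 (6.53, high) and Abcd2 in M+Fc-GLP-1 replicate 2 (-0.57, high). After PH they were Cd36 in C+Fc-GLP-1 replicate 4 (-1.27, low), Slc27a2 in MCD replicate 4 (7.08, high), Acaa1b in MCD replicate 4 (6.13, high), Hadhb in C replicate 1 (5.51, low) and Pdk4 in M+Fc-GLP-1 replicate 2 (4.53, high). MCD replicate 4 after PH had the highest value of its group in 19 of the 32 members and the lowest in 0.

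The diet difference before PH differed with and without Fc-GLP-1, by the test of the interaction, in Acaa1b (2.78), Pex11a (1.99), Hadhb (1.41) and Acaa1a (1.17).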

How the results depend on the processing

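Of 43 calls of a member in a comparison, 22 were kept in every alternative tried, 21 were lost in some and 0 changed direction. In MCD against C and in M+Fc-GLP-1 against C+Fc-GLP-1 before PH the number of members called stayed within 1.5 times its value in all 12 alternatives other than leaving out 1 array. The alternative without saturated probes could not differ, since no probe was saturated on any array. A like number did not mean the same genes. In MCD against C, median centring lost Acsl1 and Slc27a2 and gained Bdh1, Cpt1a and Pdk4. Quantile normalisation lost the same genes and gained Bdh1 and Hadha. Quantile normalisation after normexp gave 9 members called in C+Fc-GLP-1 against C and 10 in M+Fc-GLP-1 against MCD before PH, 3 over time in C+Fc-GLP-1 mice, 3 over time in M+Fc-GLP-1 mice, and 2 in the interaction before PH. The authors' values gave 8, 9 and 2 in the first 2 and the last of these, and could not be used between times. Median centring gave 2 in the interaction. Without the filter on dim probes 8 were called in M+Fc-GLP-1 against MCD before PH, 1 after PH and 2 over time in C+Fc-GLP-1 mice. For the last, a percentile over probes above background everywhere gave 2, a variance trend 2 and a fit of the compared groups alone 0. After PH that fit, which rests on fewer arrays, gave 3 in M+Fc-GLP-1 against C+Fc-GLP-1, with 1 in M+Fc-GLP-1 against MCD. For the others the cause was not tested. Chosen after seeing the data, leaving out the 3 arrays high in bile duct markers gave 8 in M+Fc-GLP-1 against MCD after PH, and leaving out the arrays with the lowest and highest share of probes above background (C replicate 2 and M+Fc-GLP-1 replicate 2) gave 7 in that pair before PH. Leaving out 1 array at a time gave 5 to 6 in MCD against C and 9 to 11 in M+Fc-GLP-1 against C+Fc-GLP-1 before PH, 1 in C+Fc-GLP-1 against C, 1 to 7 in M+Fc-GLP-1 against MCD and 2 to 5 in the interaction. After PH it gave 5 to 8 in MCD against C, 0 in C+Fc-GLP-1 against C, 5 to 8 in M+Fc-GLP-1 against C+Fc-GLP-1, with 1 to 5 in M+Fc-GLP-1 against MCD. Over time it gave 0 to 2 in C+Fc-GLP-1 mice and 0 elsewhere. With the replicate number as a block, MCD against C before PH had 7 members called in place of 6, through Acaa2 at -0.64 (adjusted p = 0.0469), and no other count changed. Signal over background limited Abcd2 and Crat, well above background on 29 and 26 of 32 arrays.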
